A study of Mus musculus with 10 samples.

Results

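The 10 genes studied are expressed by the liver's sinusoidal endothelium, several of them by other cells as well, and were followed in bulk RNA-seq of mouse liver. They were the 10 rows of the count table, of 56748 in all, that carry the symbols Stab1, Stab2, Lyve1, Clec4g, Cdh5, Pecam1, Kdr, Bmp2, Wnt2 and Rspo3. The first 7 are endothelial identity genes and the last 3 encode secreted signals. All 10 passed the filter on low counts, as did 14068 genes in all. The study compared 5 liver libraries of floxed mice (genotype ACSS2-flox, written flox) with 5 of mice labelled ACSS2-HKO, which the design text calls a knockout in liver cells. All 10 libraries were of liver from mice fed a high-fat, high-fructose diet for 4 months. Not given in the sources used here were the promoter that drove recombination, the deleted exons, and the sex and age of the mice. Nothing states that the libraries came from separate animals, so p-values measure the spread between these samples, which may be technical.

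Sinusoidal endothelial cells line the liver's capillaries. Their wall is perforated and lacks an organised basement membrane, and they clear waste macromolecules from blood through scavenger receptors. They also instruct their neighbours: BMP2, with BMP6, signals to hepatocytes to make the iron hormone hepcidin, while WNT2 and R-spondin 3, secreted around the central vein, maintain the gene programme of pericentral hepatocytes through beta-catenin. In chronic liver disease these cells lose their perforations and take on features of ordinary capillaries, a change called capillarisation.

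Of the 10 genes, 1 fell in HKO, the cadherin gene Cdh5, and 0 rose (edgeR quasi-likelihood test, Benjamini-Hochberg adjusted over all 14068 tested genes, threshold 0.05). Over all tested genes 3.99% were called, 3.07% lower and 0.917% higher in HKO, and a single called gene is no result about the 10 as a group. The fold change estimate was below 0 for 9 of the 10 genes, against 49.0% of all tested genes. Among these 9, Clec4g and Rspo3 were at -0.02 on the log2 scale and changed sign in 6 of 18 alternative fits each. Several of the genes were high or low in the same libraries, so the 9 signs are not independent. The median log2 fold change (HKO over flox) of the 10 was -0.39, against 0.0083 over all tested genes. HKO replicate 3 had the highest level among HKO libraries for 6 of the 10 genes. Without this library, Cdh5 was again the 1 gene called and the median was -0.48. In that comparison 4.18% of 14300 tested genes were called, 3.34% lower and 0.839% higher. In bulk liver, fewer endothelial cells and less RNA per endothelial cell cannot be told apart.

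Levels below are CPM, a gene's count relative to its library's total and scaled by TMM factors, with mean ± SD over 5 libraries per group. The libraries held 15413648 to 19275358 counts, so that 3 counts correspond to 0.156 to 0.195 CPM. Acss2, the targeted gene, was between 56.5 and 128.8 CPM in flox and between 40.2 and 59.0 CPM in HKO, and its difference of -0.71 on the log2 scale missed the threshold (edgeR adjusted p = 0.0858). It passed in 4 of 18 alternatives, namely DESeq2, library totals alone, no filter on low counts, and flox replicate 3 left out (adjusted p from 0.0346 to 0.186 over the 18). Gss, on the opposite strand, overlaps Acss2 and was counted 92.4% as often. As to the labelled tissue, the 12 hepatocyte genes summed to between 95629 and 156336 CPM per library. Macrophage markers differed between the groups: 18 of 18 fell (14 to 18 over the alternatives, 17 without HKO replicate 3), none was at 0 in any library, and their summed level was 372.6 to 928.2 CPM in flox and 138.7 to 289.9 CPM in HKO. The 15 stellate cell and fibroblast markers, of which 0 passed, summed to 252.4 to 458.2 CPM in flox and 208.2 to 381.6 CPM in HKO. Flox replicate 5 had the highest macrophage and stellate sums and the lowest hepatocyte sum of all libraries, and HKO replicate 3 the highest macrophage and stellate sums within HKO. The part of these other cell types in the values below was not tested, except where a measurement is given.

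**Figure D1:**
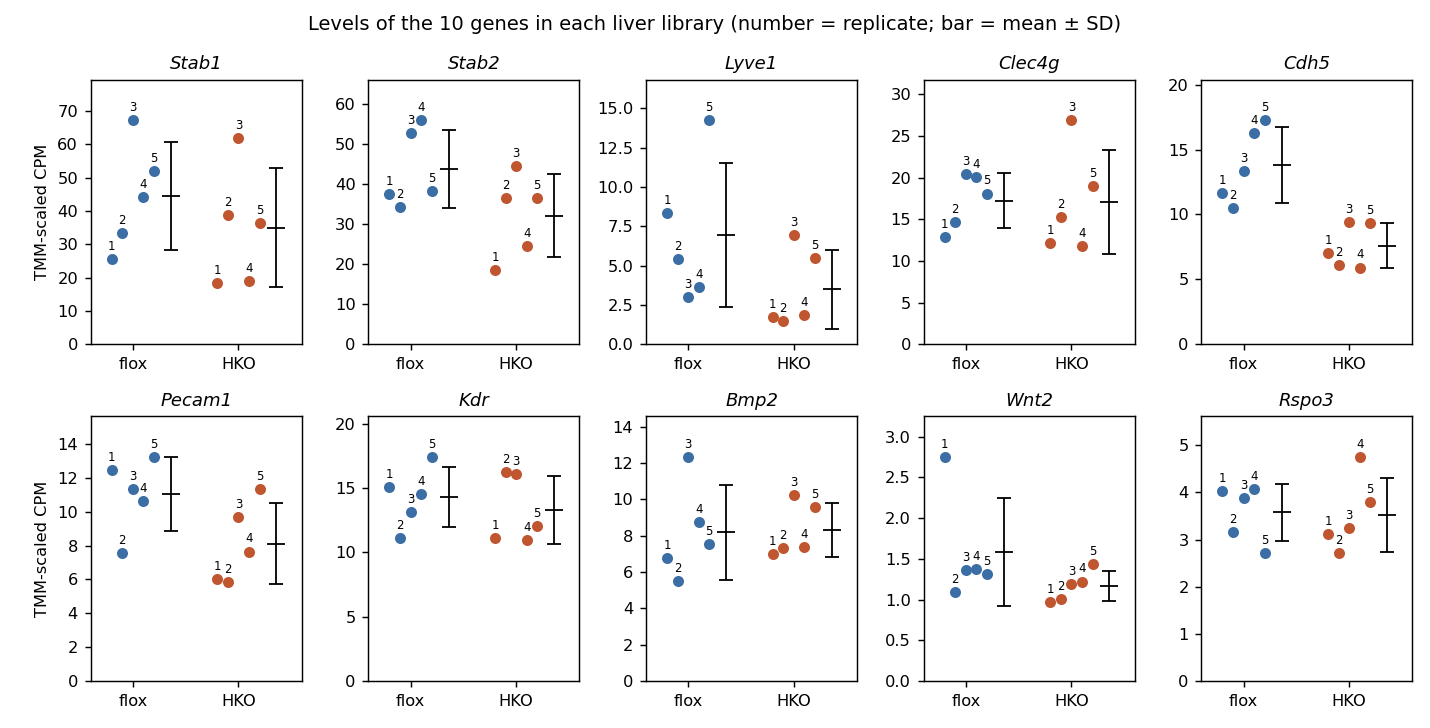
Levels of each gene in TMM-scaled CPM (vertical axes, starting at 0) in the 5 flox (blue) and 5 HKO (orange) libraries, with replicate numbers over the points and mean ± SD bars beside them. The groups are separated for Cdh5, whose highest HKO library (9.45 CPM) lies under the lowest flox library (10.5 CPM), and overlap for the other 9 genes.

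Upstream sequence could be shown for 5 of the 10 genes (Stab1, Stab2, Clec4g, Kdr and Wnt2), those matched by symbol in the RefSeq promoter table for GRCm38.p6. The stabilin pair is printed because the genes are paralogues and both were lowest in HKO replicates 1 and 4, as described below. The windows are chr14:31168642-31168891 for Stab1 and chr10:87007943-87008192 for Stab2, both on the minus strand. Each line gives the 250 bases before the annotated start, 5′ to 3′ on the gene's strand, with capitals for the longest run of letters that both share, 11 bases.
Stab1: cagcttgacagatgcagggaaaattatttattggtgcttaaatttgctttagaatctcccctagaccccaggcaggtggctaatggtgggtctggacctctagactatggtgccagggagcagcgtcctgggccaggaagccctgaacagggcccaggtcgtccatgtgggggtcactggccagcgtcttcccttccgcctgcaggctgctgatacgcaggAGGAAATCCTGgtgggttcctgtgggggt
Stab2: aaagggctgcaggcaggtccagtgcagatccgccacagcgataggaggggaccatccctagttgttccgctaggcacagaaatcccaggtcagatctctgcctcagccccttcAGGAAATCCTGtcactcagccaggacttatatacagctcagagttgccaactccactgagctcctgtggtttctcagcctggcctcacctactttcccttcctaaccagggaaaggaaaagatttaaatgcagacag

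The shared run AGGAAATCCTG begins 29 bases before the Stab1 start and 137 bases before the Stab2 start. Searched on both strands, it is present in 14 of 32851 RefSeq promoter windows of the same length (0.0426%), and in 2 of the 5 windows of these genes, the stabilins. It was chosen after the sequences were seen. It contains GGAA, the core letters bound by the ETS family of factors that is active in endothelium, which occur in 5 of the 5 windows and in 93.4% of all windows. The GATA letters AGATAA occur in 0 of the 5 and in 9.99% of all windows. These matches describe letters and were tested for nothing.

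Among the genes of endothelial junctions and receptors, Cdh5 (ENSMUSG00000031871) gave the 1 call. It encodes VE-cadherin, the adhesion protein of adherens junctions. In the order of replicates 1 to 5, used for each gene, it stood at 11.7, 10.5, 13.3, 16.3 and 17.3 CPM in flox and at 7.06, 6.11, 9.45, 5.91 and 9.37 CPM in HKO. All 5 HKO libraries lay below all 5 flox libraries, as for 3.46% of all tested genes. Of the other 9 members none had separated groups in either direction, against 5.37% of all tested genes in either direction and 1.91% with HKO above flox. Without HKO replicate 3 the corresponding shares of all genes were 7.71% in either direction, 5.15% lower and 2.57% higher. The Cdh5 mean went from 13.8 ± 2.90 to 7.58 ± 1.72 CPM, a log2 fold change of -0.87 ± 0.20 (SE) with a 95% confidence interval of -1.29 to -0.44 and an edgeR adjusted p of 0.0261. That is a level 1.82-fold lower in HKO, on 1235 counts in flox and 611 in HKO. Without HKO replicate 3 the log2 fold change was -0.95 (edgeR adjusted p = 0.0230). The call was lost when flox replicates 4 or 5 or HKO replicates 1, 2 or 4 were left out (edgeR adjusted p = 0.0569, 0.0722, 0.0665, 0.0659 and 0.0685, with log2 fold changes from -0.84 to -0.77).

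Pecam1 (ENSMUSG00000020717), which encodes the platelet and endothelial adhesion molecule CD31, was at 12.5, 7.55, 11.4, 10.7 and 13.2 CPM in flox and at 6.03, 5.86, 9.71, 7.65 and 11.4 CPM in HKO. The groups overlapped, since flox replicate 2 lay under 3 of the HKO libraries and HKO replicate 5 stood among the flox libraries. The log2 fold change of -0.44 (95% confidence interval -0.92 to 0.03) did not pass (edgeR adjusted p = 0.331), nor did the value of -0.51 without HKO replicate 3 (edgeR adjusted p = 0.295). Kdr (ENSMUSG00000062960), the main signalling receptor for VEGF-A, was at 15.1, 11.1, 13.2, 14.6 and 17.4 CPM in flox and at 11.1, 16.3, 16.1, 10.99 and 12.1 CPM in HKO. HKO replicates 2 and 3 stood with the higher flox libraries and the other three at the low end. Its log2 fold change was -0.10, with an interval from -0.47 to 0.26 (edgeR adjusted p = 0.826), and -0.18 (interval -0.56 to 0.21) without HKO replicate 3. Whether Cdh5 differed more than Pecam1 or Kdr was not tested.

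None of the 4 clearance and lectin receptors passed. Stabilin-1 and stabilin-2 take up modified lipoproteins, matrix fragments and hyaluronan. Stab1 (ENSMUSG00000042286) was at 25.5, 33.4, 67.3, 44.3 and 52.0 CPM in flox and at 18.4, 38.8, 62.0, 19.0 and 36.5 CPM in HKO. HKO replicates 1 and 4 were the lowest of all 10 libraries, while HKO replicate 3 was exceeded by flox replicate 3 alone. The log2 fold change was -0.35 (95% confidence interval -1.06 to 0.36), and -0.66 without HKO replicate 3, where the interval ran from -1.30 to -0.0099 and the edgeR adjusted p was 0.290. Stab1 is also made by macrophages, whose markers were lower in HKO, and Nt5dc2, counted 15.9% as often, overlaps it on the opposite strand.

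Stab2 (ENSMUSG00000035459), which is more restricted to sinusoidal endothelium, was at 37.6, 34.3, 52.9, 56.1 and 38.3 CPM in flox and at 18.7, 36.6, 44.5, 24.6 and 36.6 CPM in HKO. Again HKO replicates 1 and 4 were lowest, and the other 3 HKO libraries lay within the flox range. The log2 fold change was -0.45 (95% confidence interval -0.93 to 0.04; edgeR adjusted p = 0.343), and -0.59 without HKO replicate 3 (edgeR adjusted p = 0.192).

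Lyve1 (ENSMUSG00000030787), the hyaluronan receptor of sinusoidal and lymphatic endothelium that some tissue macrophages also carry, had the largest SE of the 10. It was at 8.32, 5.42, 3.003, 3.67 and 14.3 CPM in flox and at 1.75, 1.45, 6.94, 1.86 and 5.46 CPM in HKO. HKO replicates 1, 2 and 4 lay under every flox library, and HKO replicates 3 and 5 stood among them. The log2 fold change of -0.99 ± 0.50 (SE) was the lowest of the 10 estimates and did not pass (edgeR adjusted p = 0.346). Without HKO replicate 3 it was -1.39 with an interval from -2.47 to -0.30 (edgeR adjusted p = 0.164). With flox replicate 5 left out, where Lyve1 was highest, it was -0.54 (edgeR adjusted p = 0.710).

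Clec4g (ENSMUSG00000074491), which encodes the lectin LSECtin, was at 12.9, 14.6, 20.4, 20.1 and 18.1 CPM in flox and at 12.2, 15.3, 26.9, 11.8 and 19.0 CPM in HKO. The 2 groups had nearly the same mean (17.2 ± 3.33 and 17.03 ± 6.23 CPM), and the highest and the lowest library of all were both HKO. Its log2 fold change was -0.02 with an interval from -0.50 to 0.47, and -0.24 (interval -0.65 to 0.18) without HKO replicate 3.

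**Figure D2:**
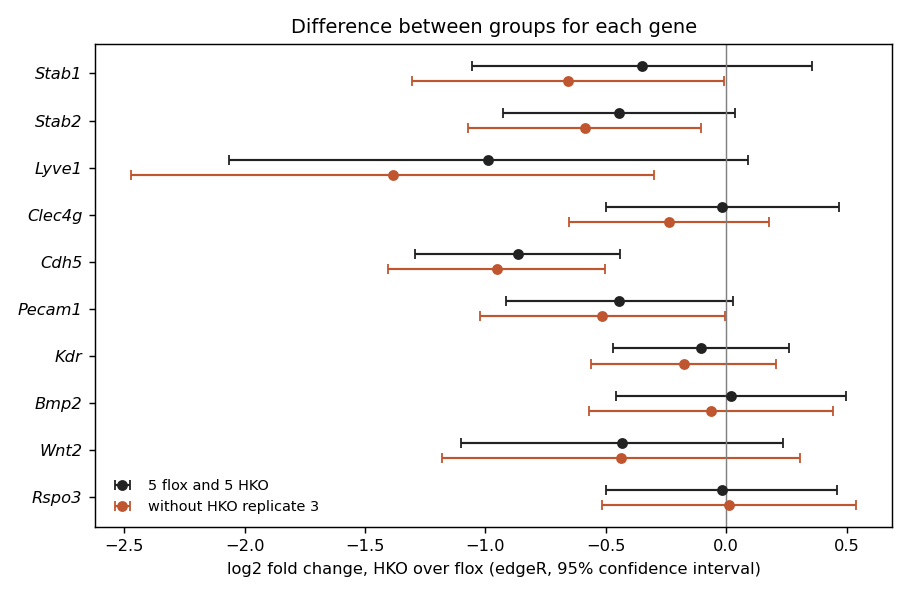
Log2 fold change of HKO over flox (horizontal axis) for each gene, with 95% confidence intervals from the edgeR fit, for all 10 libraries (black) and without HKO replicate 3 (orange). Cdh5 stands at -0.87 and -0.95, and leaving that library out moved the estimates of the 7 identity genes downwards, most for Lyve1 (-0.99 to -1.39).

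Several identity genes were high or low in the same libraries. Centred on each gene's mean over the 10 libraries, the median log2 CPM of the 7 identity genes was -0.61, -0.11, 0.29, -0.56 and 0.009 in HKO replicates 1 to 5. In flox it ran from -0.12 in replicate 2 to 0.51 in replicate 5. HKO replicate 3 had the highest HKO level for 5 of the 7, and for Kdr and Pecam1 it came second. The lowest level of all 10 libraries fell in HKO replicate 1 for 2 genes, HKO replicate 2 for 2 and HKO replicate 4 for 3. The highest was in flox replicate 5 for 4 genes.

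Sums over endothelial genes outside the 10 differed in their order of libraries. The summed level of 11 other sinusoidal genes, such as Oit3, Gpr182 and Fcgr2b, was 129.6 and 128.1 CPM in HKO replicates 1 and 4. It was between 155.5 and 239.5 CPM in the other 8 libraries, with 227.7 CPM in HKO replicate 3. Macrophages share some of these genes, among them Mrc1, so this sum does not measure sinusoidal endothelium alone. The sum of 22 pan-endothelial genes was 119.3 and 121.5 CPM in HKO replicates 1 and 4 and highest, at 224.3 CPM, in HKO replicate 3. The sum of 4 lymphatic genes had another order. It was lowest in flox replicate 2 (149.5 CPM) and HKO replicate 3 (150.5 CPM), and HKO replicate 4 (197.6 CPM) was the highest of the HKO libraries. Most of that sum was Prox1, which hepatocytes also make, so it does not measure lymphatic endothelium alone. Macrophage markers summed to 167.2, 214.7, 289.9, 205.7 and 138.7 CPM in HKO replicates 1 to 5. In replicates 1 to 4 they ranked as the pan-endothelial sum did, with replicate 3 highest, while replicate 5 was lowest for macrophage markers and had endothelial sums of 194.0 and 190.8 CPM. The stellate sum in HKO was also lowest in replicate 1 (208.2 CPM) and highest in replicate 3 (381.6 CPM). Their part in the pattern of the identity genes was not tested.

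**Figure D3:**
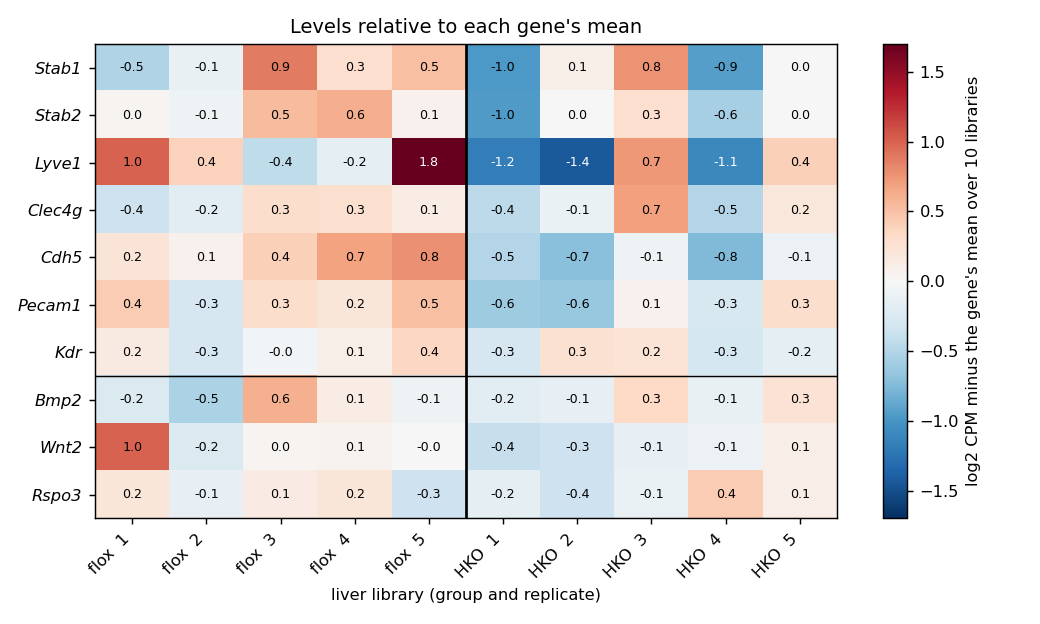
Log2 CPM of each gene (rows) in each library (columns) minus the gene's mean over 10 libraries, with red above and blue below it; identity genes are above the horizontal line and secreted signals under it. HKO replicates 1 and 4 are blue for all 7 identity genes, and HKO replicate 3 is red for most of them.

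The secreted signals gave no call. Bmp2 (ENSMUSG00000027358), the BMP ligand of sinusoidal endothelium, was at 6.79, 5.48, 12.3, 8.77 and 7.56 CPM in flox and at 6.9999, 7.31, 10.2, 7.39 and 9.59 CPM in HKO. Every HKO library lay within the flox range. Its log2 fold change was 0.02 with an interval from -0.46 to 0.50, and -0.06 without HKO replicate 3. Rspo3 (ENSMUSG00000019880), which raises Wnt signalling by protecting its receptors and is also made by stellate cells, was at 4.04, 3.17, 3.88, 4.07 and 2.72 CPM in flox and at 3.11, 2.71, 3.24, 4.76 and 3.80 CPM in HKO. The lowest library of each group had nearly the same level, and the log2 fold change was -0.02 (interval -0.50 to 0.46), or 0.01 without HKO replicate 3.

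Wnt2 (ENSMUSG00000010797), a Wnt ligand of sinusoidal and central vein endothelium, was the least abundant, with 138 counts in all flox libraries and 94 in all HKO libraries. It was at 2.75, 1.10, 1.36, 1.38 and 1.31 CPM in flox and at 0.972, 1.01, 1.19, 1.22 and 1.43 CPM in HKO. Flox replicate 1 stood far above every other library, and the rest overlapped. A log2 fold change of -0.43 (interval -1.10 to 0.24; edgeR adjusted p = 0.536) became -0.14 without flox replicate 1 and was -0.44 without HKO replicate 3. The interval includes no change.

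Per kilobase of the gene length given in the table, the order in flox was Clec4g (6.99 ± 1.35 CPM per kb), Stab2 (5.01 ± 1.13), Stab1 (4.32 ± 1.59), Cdh5 (3.29 ± 0.689), Lyve1 (2.38 ± 1.57), Bmp2 (2.30 ± 0.734), Pecam1 (1.78 ± 0.353), Kdr (1.58 ± 0.258), Rspo3 (1.16 ± 0.195) and Wnt2 (0.701 ± 0.295). Each gene's mean ± SD overlapped that of its neighbour in this order. The genes were measured in the same libraries, and whether neighbours differ within libraries was not tested. In HKO the first 3 and the last 2 kept their places, Cdh5 moved from the fourth to the fifth behind Bmp2 (1.80 ± 0.410 against 2.34 ± 0.420 CPM per kb), and Lyve1 from the fifth to the eighth.

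In the table's coordinates the genes lie as follows, and the build is uncertain, because the submitters' processing notes name mm10 while 0 of the 10 start where GENCODE M21 for that build places them. Stab1 is at chr14:30860970-30890598, Stab2 at chr10:86677062-86843889, Lyve1 at chr7:110449814-110462446, Clec4g at chr8:3757064-3770651 and Cdh5 at chr8:104828257-104871143. Pecam1 is at chr11:106545043-106641454, Kdr at chr5:76093487-76139118, Bmp2 at chr2:133394079-133404805, Wnt2 at chr6:17988939-18030584 and Rspo3 at chr10:29328412-29411863. Cdh5 and Bmp2 are on the plus strand and the other 8 on the minus strand. None of the 10 had a near-identical copy among GENCODE M21 transcripts (95% identity or more across 50% or more of the length).

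The wider endothelial lists gave few calls. Of 11 tested sinusoidal genes outside the 10, 1 fell and 0 rose, with a median log2 fold change of -0.49. The one that fell was Mrc1, the mannose receptor that macrophages share, from 32.1 ± 7.71 to 19.4 ± 4.04 CPM (edgeR adjusted p = 0.0485, and 0.0248 without HKO replicate 3). The call on Mrc1 was lost in 10 of 18 alternatives (edgeR adjusted p up to 0.124), among them leaving out flox replicates 1, 4 or 5 or HKO replicates 1, 2, 4 or 5. Of 22 pan-endothelial genes 0 passed, and the median was -0.20. Eng, a co-receptor for BMP9, went from 41.7 ± 4.86 to 37.3 ± 12.1 CPM (edgeR adjusted p = 0.750) and overlaps the more highly counted Fpgs. Ptprb, the phosphatase that acts on VE-cadherin and TIE2, was at 31.02 ± 4.57 and 33.4 ± 10.4 CPM (edgeR adjusted p = 0.853).

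Of 16 tested genes of a mixed list, headed continuous and venous endothelium, 0 rose and 1 fell, with a median of -0.36. The list also holds genes such as Col4a1 and Dll4 that do not mark that endothelium alone, and capillarisation was not tested. Vcam1, an adhesion molecule for leukocytes that Kupffer cells also make, went from 22.5 ± 11.7 to 9.32 ± 3.20 CPM (edgeR adjusted p = 0.0359, and 0.0169 without HKO replicate 3). Leaving out flox replicate 1 or 5, or any HKO replicate but the third, ended that call (edgeR adjusted p up to 0.0931). Without HKO replicate 3, Plvap of the same list also passed (edgeR adjusted p = 0.0365, against 0.107 with all libraries). Of 4 tested lymphatic markers 0 passed, with Prox1 at 151.7 ± 25.4 and 139.1 ± 21.7 CPM and Reln at 23.8 ± 3.36 and 22.5 ± 6.66 CPM. Hepatocytes make Prox1 too, and stellate cells Reln. Of 9 genes of VEGF ligands and co-receptors 0 passed. Vegfa, the hepatocyte-derived ligand of Kdr, was at 163.0 ± 49.4 and 199.6 ± 35.0 CPM (edgeR adjusted p = 0.502), and Nrp1 at 67.5 ± 12.4 and 76.0 ± 21.1 CPM (edgeR adjusted p = 0.721).

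**Figure D4:**
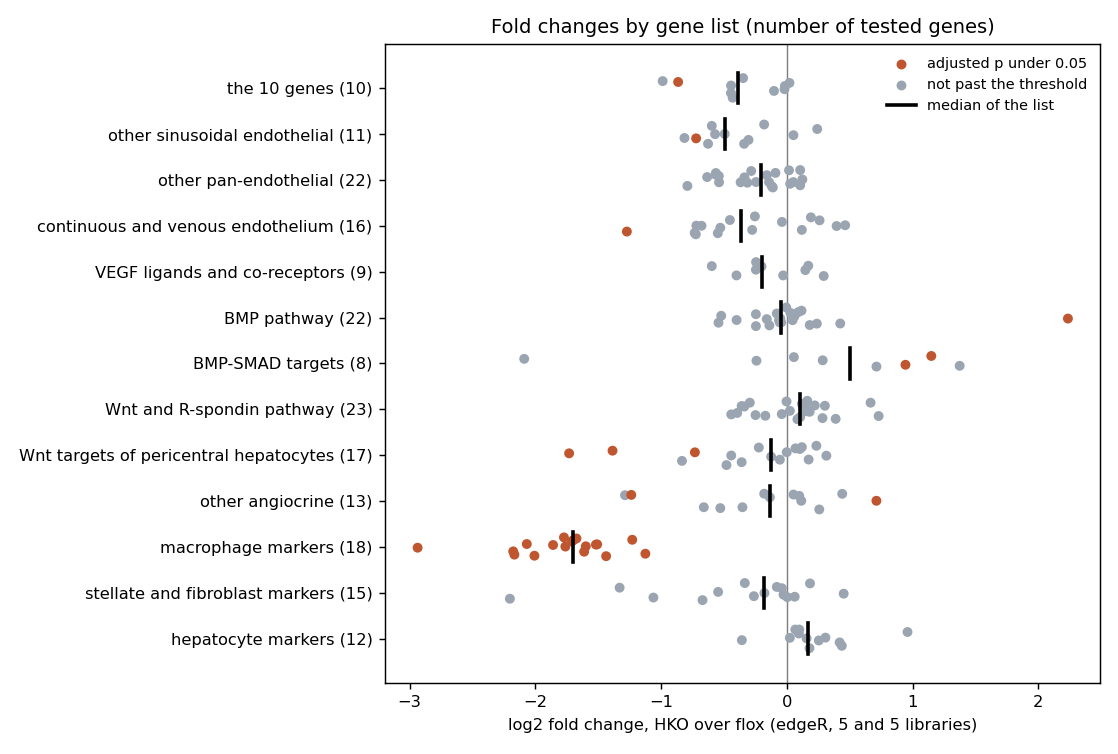
Log2 fold change of HKO over flox (horizontal axis) for each tested gene, by list (rows, with the number of tested genes); orange points passed the edgeR test, grey points did not, and black bars are list medians. The endothelial lists shown have medians from -0.49 to -0.20 with 0 or 1 gene called each. All 18 macrophage markers were called lower, with a median of -1.703.

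Downstream of BMP2, the receptors and transducers gave 1 call among 22 tested genes, with a median of -0.05. A further gene of this list was called lower under DESeq2, library totals alone and no filter on low counts. Smad9, which encodes the receptor-activated SMAD8, was at 6.49, 2.92, 5.46, 7.33 and 7.25 CPM in flox and at 31.1, 21.4, 13.9, 39.8 and 32.8 CPM in HKO. All HKO libraries lay above all flox libraries, and it rose by 2.23 ± 0.29 on the log2 scale (edgeR adjusted p = 0.00240). It passed in all 18 alternatives (adjusted p up to 0.00747).

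Of 8 tested target genes of BMP and SMAD signalling 2 rose and 0 fell, with a median of 0.50. Id2 and Id3 encode inhibitors of helix-loop-helix factors. Id2 went from 94.3 ± 19.8 to 181.2 ± 59.5 CPM (edgeR adjusted p = 0.0325) and Id3 from 21.7 ± 7.26 to 48.02 ± 19.2 CPM (edgeR adjusted p = 0.0332). Neither passed without HKO replicate 3 (edgeR adjusted p = 0.0656 and 0.0620). With flox replicate 3, flox replicate 4, HKO replicate 4 or HKO replicate 5 left out, 0 of the 8 passed as well. Id2 further missed the threshold when flox replicate 2, flox replicate 5 or HKO replicate 1 was dropped, and Id3 when flox replicate 1 was dropped. The hepcidin gene Hamp, named after its values were seen because it is a known target of BMP2 in hepatocytes, ran from 4.10 to 475.3 CPM in flox and from 271.7 to 815.2 CPM in HKO and did not pass (edgeR adjusted p = 0.362). Its counterpart Hamp2 had an estimate in the other direction (-2.09, edgeR adjusted p = 0.225).

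Around WNT2 and R-spondin 3, 0 of 23 tested ligands, receptors and transducers passed, with a median of 0.10. In 5 of the 18 alternatives 1 gene of this list was called higher. These were DESeq2, no filter on low counts, robust dispersion, and HKO replicate 1 or 5 left out. Ctnnb1, which encodes beta-catenin, was at 132.4 ± 29.9 and 117.6 ± 24.9 CPM, and the co-receptor gene Lrp6 at 69.3 ± 11.1 and 80.8 ± 9.08 CPM. Rspo1, Rspo2 and Rspo4 were too low to be tested, so Rspo3 was the R-spondin measured. Of 17 pericentral genes that depend on Wnt signalling 3 fell and 0 rose, with a median of -0.13 (0.07 without flox replicate 4). They were Slc13a3, a dicarboxylate transporter (39.6 ± 13.0 to 11.9 ± 1.17 CPM, edgeR adjusted p = 0.00141), Lect2, a secreted hepatokine (123.1 ± 26.1 to 74.1 ± 11.3 CPM, edgeR adjusted p = 0.0259), and Rhbg, an ammonium transporter (2.54 ± 1.11 to 0.966 ± 0.182 CPM, edgeR adjusted p = 0.0289). Rhbg shares most of its transcript with a predicted gene, Gm38392. Slc13a3 passed in all 18 alternatives. It was the 1 gene of the list called without flox replicate 2 or HKO replicates 1, 2 or 4. Rhbg passed in 9 of the 18 and was also lost without flox replicate 1, HKO replicate 3 or HKO replicate 5 (edgeR adjusted p up to 0.0739). The textbook targets Glul (928.2 ± 143.5 and 794.9 ± 213.1 CPM), Axin2 (8.26 ± 2.42 and 8.67 ± 1.31 CPM) and Cyp2e1 (11400 ± 2067 and 14170 ± 1143 CPM), chosen after their values were seen, did not pass.

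Of 13 tested genes of other signals that endothelium sends or shares, 1 rose and 1 fell, with a median of -0.14. Igf1, made chiefly by hepatocytes, went from 491.5 ± 84.5 to 804.9 ± 88.7 CPM with groups that did not overlap (edgeR adjusted p = 0.0233, lost without HKO replicates 1 or 4, up to 0.0614). Tgfb1, which macrophages also secrete, went from 7.19 ± 2.91 to 3.04 ± 0.794 CPM (edgeR adjusted p = 0.0317, and 0.0541 without HKO replicate 3). Dropping flox replicate 4 or 5, or HKO replicate 1, 2 or 4, also ended the Tgfb1 call (edgeR adjusted p up to 0.0864). The liver-wide markers named by the same rule were Alb, Trf, Dcn and Ecm1, of which none passed, and the macrophage genes Csf1r, Aif1, C1qb and Mpeg1, which all fell (log2 fold changes -1.76, -2.17, -1.71 and -1.67). Aif1 is named in the series title.

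The 5 genes whose level was most like the median profile of the 7 identity genes were Plpp1, Arhgef6, Eng, Tmem106a and Malat1. Likeness was the root-mean-square difference of centred log2 CPM over the 10 libraries, 0.13, 0.13, 0.14, 0.14 and 0.15 in that order. Their log2 fold changes of -0.51, -0.50, -0.16, -0.49 and -0.26 did not pass (edgeR adjusted p from 0.293 to 0.750). The 5 genes were picked by likeness over the libraries of both groups, so these fold changes are not independent of the choice. Plpp1 overlaps Mtrex on the other strand, which had more than its own counts.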

How the data were processed

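Total RNA of 10 liver samples was sequenced from VAHTS Universal V6 libraries, per the labels' protocols. The authors deposited raw counts of reads per gene, as whole numbers not scaled to library size. The submitters' processing notes name mm10 and DESeq2; not given in the sources used here were the aligner, counter, annotation and strand setting. Groups came from the sample titles. Within groups, every pair of libraries differed by more than sampling noise (chi-square per degree of freedom at least 24.6).

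HKO was compared with flox by edgeR 4.0.16 (quasi-likelihood F-test, two-sided, TMM, filterByExpr by group) in R 4.3.3, with Benjamini-Hochberg adjustment over all tested genes and a threshold of 0.05. SE was obtained from the fold change and its F statistic. Log2 CPM used a prior count of 2. The 18 alternatives used DESeq2 1.42.0, limma-voom (limma 3.58.1), other scalings, filters and dispersions, a replicate block, or 1 library fewer. The test was tried on simulated counts in which 200 genes were changed. It recovered 53.5% of 2-fold and 89% of 4-fold changes, and 10 of its 152 calls were false. Copies were sought with BLAST 2.17.0.

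The members and lists were chosen with earlier results of these data known. Beside the 10 genes, the rule named Acss2, up to 4 called genes per list (or the 2 most abundant where none was called) and the 5 nearest profiles, 41 genes in all; others are said to be chosen after their values were seen, among them Hamp, Hamp2 and Plvap.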

Additional observations from a re-analysis of the deposited data

Results flagged for a closer look

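Within each group of 5 libraries, a library was singled out when its gap to the nearest other library exceeded 0.71 of the group's range in log2 CPM (Dixon's test). Of 82 groups of values examined, 3 held such a library, where chance gives about 4.1. Wnt2 was at 2.753 CPM in flox replicate 1 against 1.10 to 1.38 CPM in the other flox libraries. Vcam1 was at 15.0 CPM in HKO replicate 3 against 7.52 to 8.51 CPM in the other HKO libraries. The macrophage gene Aif1 was at 2.445 CPM in HKO replicate 3 against 0.819 to 1.04 CPM.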

How the results depend on the processing

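Cdh5 was the 1 of the 10 genes called under DESeq2, limma-voom, RLE size factors, library totals alone, no filter on low counts, at least 1 CPM in 5 libraries and robust dispersion. With 1 library left out, the number called ran from 0 to 1 and the number of all genes called from 289 to 673 (361 without flox replicate 5, 335, 289 and 354 without HKO replicates 1, 4 and 5), while DESeq2 called 1021 genes. The median of the 10 genes stayed below 0, from -0.50 to -0.24. Estimates near 0 changed sign: Bmp2 was -0.10 with library totals alone, and with 1 library left out Bmp2 ran from -0.0937 to 0.2153, Clec4g from -0.2382 to 0.0927 and Rspo3 from -0.1482 to 0.0640. The other 7 genes kept their direction in all 18 alternatives. With HKO replicate 3 out, 2 genes (Cdh5 and Lyve1) were called by DESeq2 (Lyve1 adjusted p = 0.0482), 2 without a filter on low counts (0.0328) and 2 with the replicate block (0.0167). Leaving out a further library then gave 0 to 2, with 0 where flox replicate 5 or HKO replicates 1, 2 or 4 were dropped and 2 without HKO replicate 5. The cause was not tested.

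In a fit of all libraries with a replicate block, 1 of the 10 genes was called (Cdh5, edgeR adjusted p = 0.0328), and Id2, Id3, Lect2, Rhbg, Mrc1 and Vcam1 were not. Under limma-voom the calls on Rhbg, Mrc1, Vcam1 and Tgfb1 were lost, with RLE size factors that on Mrc1, and with library totals alone that on Id3. Other lists gained calls. Of the other sinusoidal genes 2 were called lower under DESeq2 and without flox replicate 3. Of the stellate markers 2 were called lower with no filter on low counts, and 1 without flox replicate 4. Of the hepatocyte markers 2 were called higher under DESeq2, and 1 with no filter or without flox replicate 4. Of the 18 macrophage markers 16 were called under limma-voom and robust dispersion, 15 with the replicate block, and 14 when flox replicate 5, HKO replicate 2, HKO replicate 4 or HKO replicate 5 was dropped. Deviations of same-numbered libraries had correlations from -0.121 to 0.24, above 0.1 in 1 of 5 pairs, and 0 of 5 flox and 1 of 5 HKO libraries correlated best with their own number.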

Other observations

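F8 and Hfe had groups that did not overlap but did not pass the test over all genes; both were chosen after their values were seen. F8, the coagulation factor VIII gene that sinusoidal endothelium expresses, was at 6.06 to 10.1 CPM in flox and at 4.63 to 6.01 CPM in HKO (edgeR adjusted p = 0.0836, and 0.0870 without HKO replicate 3). Hfe, a membrane protein that acts with BMP receptors in iron sensing, was at 39.1 to 63.2 CPM in flox and at 29.7 to 38.05 CPM in HKO (edgeR adjusted p = 0.0688, and 0.118 without HKO replicate 3). Of all tested genes, 3.46% were separated with HKO below flox.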
